A study of Mus musculus with 12 samples.

Results

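The 39 genes described here are interferon-induced genes and genes of the major histocompatibility complex class I (MHC-I) pathway, taken from 25655 genes by their names in the tables of the series. All 39 were found in both tables. The series profiled RNA from sorted cells of mice that stain for PDGFRα, a growth factor receptor of mesenchymal stromal and progenitor cells. There were 12 samples in 4 groups of 3, read with a 3' mRNA sequencing kit (QuantSeq), and the stated aim was to find targets of estrogen receptor alpha (Esr1) in muscle cells that bear on bone metabolism.

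Muscle knockout and bone knockout samples carried the genotype PDGFRα-CreER;Esr1flox/flox. Muscle control samples carried PDGFRα-CreER alone in replicates 1 and 2, and PDGFRα-CreER;Esr1flox/+ in replicate 3. Bone control replicate 1 carried Esr1flox/flox without the Cre, and bone control replicates 2 and 3 carried PDGFRα-CreER. CreER is a drug-inducible Cre, here driven from Pdgfra, and the labels state neither the drug nor the age of the animals. The series title names female mice. Muscle cells were sorted as negative for CD45, CD31 and Vcam1, and bone cells as negative for CD45 and CD31. Whether replicates were separate animals is not in the labels, so a p-value may measure a partly technical spread.

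Interferons are secreted by cells that sense foreign or misplaced nucleic acid, and they act through receptors that switch on transcription factors. A complex that holds STAT2 and IRF9 binds a DNA element, the interferon-stimulated response element (ISRE), and turns on genes that block viral replication. Interferon gamma acts through another element, the gamma-activated site (GAS), and through it and IRF1 raises MHC-I and the peptide transporter that loads it. Low levels of these genes are kept up in stromal cells without infection. Estrogen receptor alpha is known to act on interferon signalling in immune cells.

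Some of the members carried the letters of an ISRE or a GAS near their starts. The members were chosen by name as interferon-induced and MHC-I genes, which these elements serve, so the shares below are no independent evidence. RefSeq promoter windows of GRCm38.p6, from 250 bases before to 50 after a gene's start, matched 31 of the 39 genes. The ISRE letters (GAAA, then 2 bases of any kind, then GAAA), searched on both strands, were in a window of 16 of these 31 genes (51.6%), against 3.99% of 27025 genes, and 15 of the 31 had no such match. The GAS letters (TTC, then 3 bases of any kind, then GAA), which read alike on both strands, were in a window of 8 of the 31 (25.8%), against 9.55% of all genes. Matches of a motif may overlap each other, and a match is a description of the letters, not a bound site. Members with no window were Mx1, Mx2, Oas2, Parp14, Rtp4, Tap2, Usp18 and Zbp1.

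Stretches of 100 bases around the ISRE letters are shown for 6 members whose values recur in the results, 5′ to 3′ on the strand of the gene, with the ISRE letters or their reverse complement in capitals. They show an isolated copy (B2m, Rsad2, Oas3), 2 separate copies (Ifit1, Ifitm3) and 3 overlapping copies (Isg15). Distances count from 0 at the gene's start. The Isg15 copies began at -78, -72 and -66, those of Ifit1 at -104 and -85, and that of Oas3 at -75. The Rsad2 copy began at -120 and the B2m copy at -139, while those of Ifitm3 lay after the start, at 2 and 19. On GRCm38.p6 the stretches are chr4:156200836-156200935 (minus strand) for Isg15, chr19:34640749-34640848 (plus strand) for Ifit1, chr12:26456518-26456617 (minus strand) for Rsad2, chr5:120777680-120777779 (minus strand) for Oas3, chr7:141010695-141010794 (minus strand) for Ifitm3 and chr2:122147503-122147602 (plus strand) for B2m.
Isg15: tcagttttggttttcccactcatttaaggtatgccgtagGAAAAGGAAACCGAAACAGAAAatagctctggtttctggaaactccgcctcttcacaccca
Ifit1: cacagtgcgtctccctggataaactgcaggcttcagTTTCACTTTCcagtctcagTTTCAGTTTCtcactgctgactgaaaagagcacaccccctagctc
Rsad2: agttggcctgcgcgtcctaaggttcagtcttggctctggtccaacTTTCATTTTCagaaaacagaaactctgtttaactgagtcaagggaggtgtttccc
Oas3: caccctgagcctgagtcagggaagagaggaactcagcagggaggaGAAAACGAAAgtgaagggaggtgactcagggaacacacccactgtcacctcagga
Ifitm3: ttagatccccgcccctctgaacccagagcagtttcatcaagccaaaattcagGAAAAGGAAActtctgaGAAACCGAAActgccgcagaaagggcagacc
B2m: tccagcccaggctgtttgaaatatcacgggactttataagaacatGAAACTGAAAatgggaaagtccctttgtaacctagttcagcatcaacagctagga

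The tables give, for each gene and tissue, a log2 fold change of knockout over control, a p, a false discovery rate (FDR) and the larger of the 2 group means. The header does not name the unit of that mean or say whether gene length enters it, so levels are given gene by gene. Values per library could not be tied to samples and are not given. A 95% interval of a fold change is given where it helps. It is implied by the deposited fold change and p if the p came from a two-sided normal (Wald) test, which no source used here states.

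As facts of the whole series, the targeted gene Esr1 did not pass in either table, at a log2 fold change of 1.02 in muscle (p = 0.404) and -2.69 in bone (p = 0.245) per the authors' deposited table, and a 3' tag may lie outside the deleted part. All 8 mesenchymal markers were listed above 0 in both tissues, with larger group means that summed to 23392 in muscle and 1531 in bone. Dcn and Col1a1 made up most of each sum, at 13437 and 5463 in muscle and 674 and 688 in bone. Pdgfra, the gene of the receptor sorted for, was listed at 494 in muscle and 8.60 in bone per the authors' deposited table. The 5 pan-leukocyte markers summed to 7.06 in muscle and 555 in bone, 6 neutrophil markers to 33.8 and 11481, and 5 red cell markers to 3929 and 686022. Ptprc, which encodes CD45 and was sorted against, was listed at 0.781 in muscle and 23.1 in bone per the authors' deposited table. Of 5 endothelial markers, 4 were listed at 0 in bone. The tables were made separately, so these sums are set side by side without a test.

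The interferon and MHC-I genes were listed in nearly all cases in muscle and less completely in bone. In bulk samples, fewer cells of a type and less RNA per cell cannot be told apart. In muscle 37 of the 39 had a group mean above 0, all but Mx1 and Oas3. In bone 28 had one, and the 11 listed at 0 were the RNA sensor genes Ifih1 and Ddx58 together with Usp18, Ifit2, Ifit3, Mx1, Mx2, Oas1a, Oas2, Ifi44 and Gbp2. Of the members above 0 in muscle, 27.0% were at 0 in bone, and the share over all genes above 0 in muscle was 27.1%. Oas3 alone among the members was above 0 in bone and at 0 in muscle. The larger group mean was the higher in muscle for 33 members and the higher in bone for 5, which were Irf7, Irf8, Isg15, Oas3 and Rsad2. Of the members above 0 in either tissue 86.8% thus had the higher value in muscle, against 76.2% of all such genes. Over all genes the larger group means summed to 1.15e+06 in muscle and 1.17e+06 in bone. The 5 red cell markers held 3929 and 686022 of these sums, and the part of this in the members' levels was not tested.

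**Figure D1:**
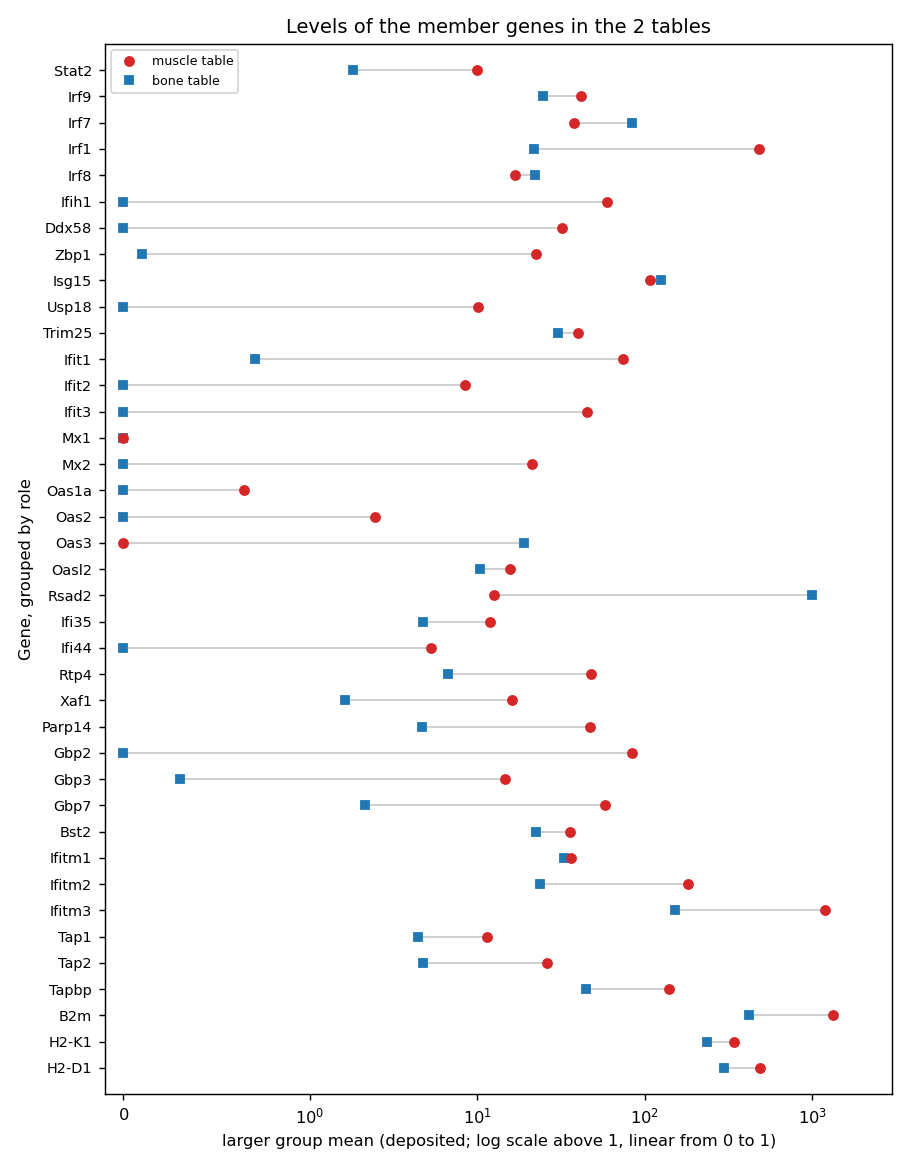
Larger group mean of each member gene (deposited value, unit not named; log scale above 1 and linear from 0 to 1) in the muscle table (red circles) and the bone table (blue squares), with genes grouped by role. Muscle values lie to the right for 33 of 39 genes (86.8% of those above 0 in either tissue, against 76.2% of all genes), and Rsad2 stands out with 992 in bone against 12.6 in muscle, from tables that were made separately.

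No member passed the authors' FDR of 0.05 in either comparison. In muscle 0 of 26 members with an FDR passed, where 0.127% of all genes did, and in bone 0 of 25 passed, where 0.0352% did. At an unadjusted p under 0.05 there were 5 of 37 members in muscle (13.5%), against 11.7% of all genes. In bone there were 10 of 28 (35.7%), against 33% of all genes. At an FDR under 0.1 there were 7 of 25 in bone (28.0%), against 32.2% of all genes. All 3 shares are near the background of their table. The median log2 fold change of the members was 0.24 in muscle, where that of all genes was 0.12, and 2.69 in bone, where that of all genes was 2.51.

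**Figure D2:**
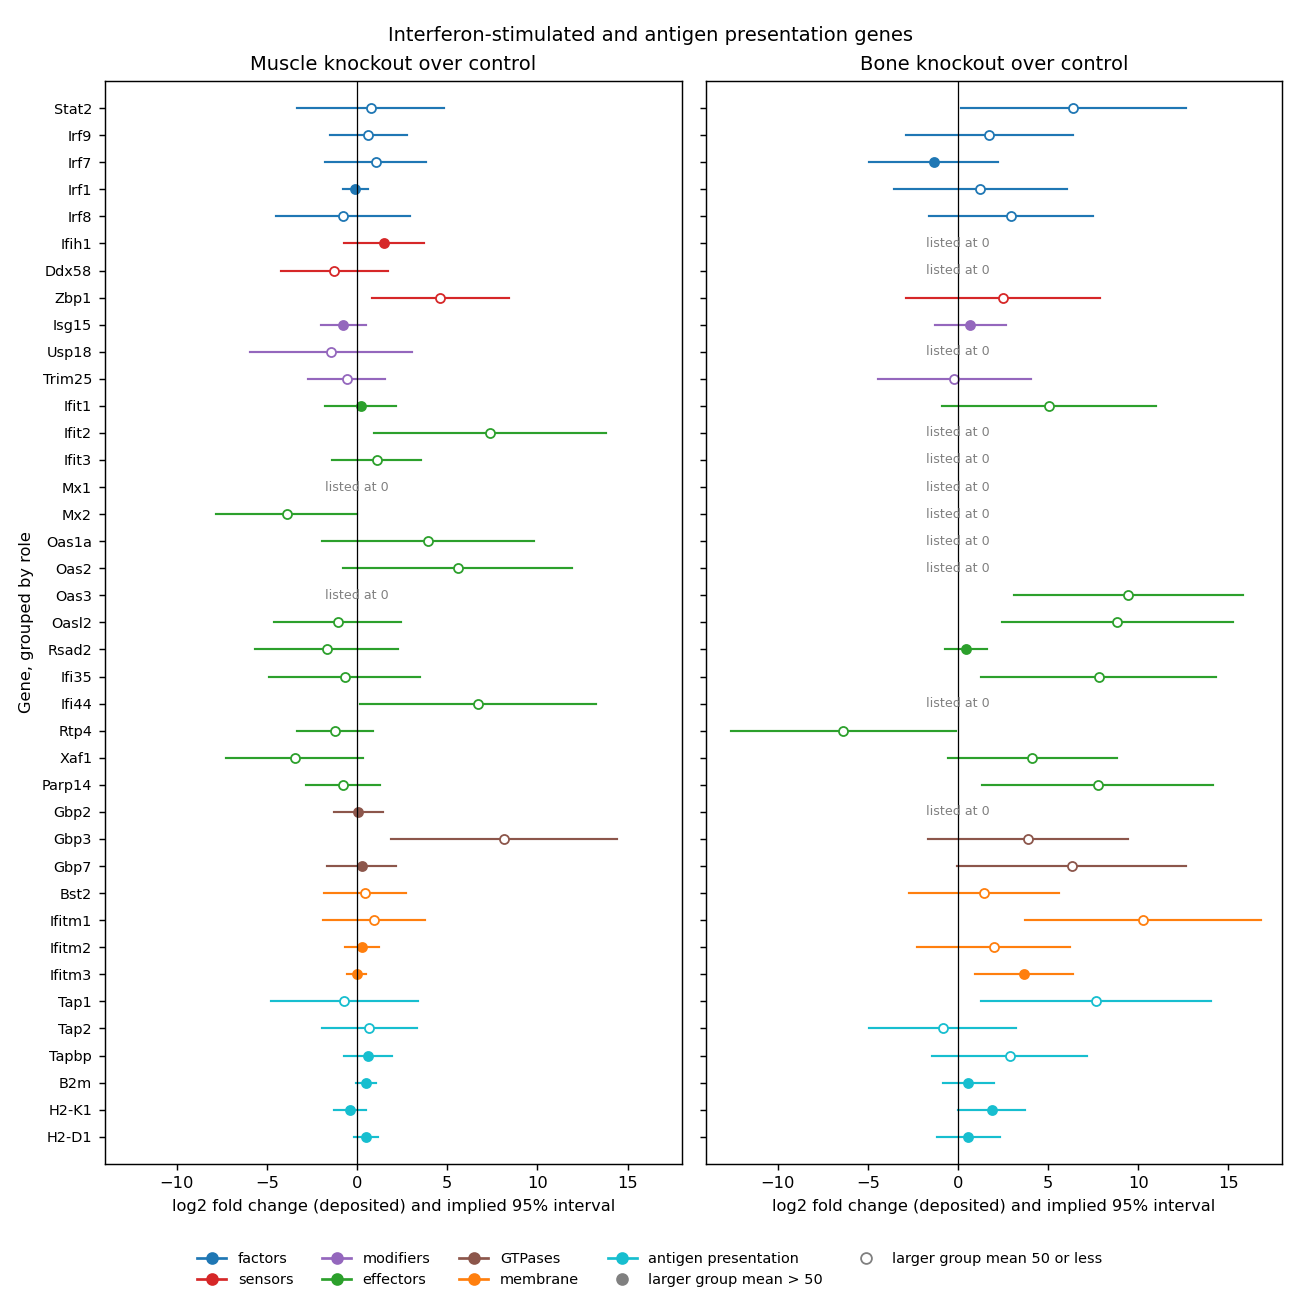
Deposited log2 fold change of knockout over control (points) with its implied 95% interval (lines) for each member gene in muscle (left) and bone (right), coloured by role. Filled points have a larger group mean above 50 and open points 50 or less, and genes with no fold change are marked as listed at 0. Intervals are narrowest for filled points in muscle, such as Ifitm3 (-0.57 to 0.50), and reach 16.8 log2 units for Ifitm1 in bone.

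None of the 5 transcription factors passed in either tissue. Irf1, the activator of MHC-I genes downstream of interferon gamma, was the best measured of them in muscle. The authors' deposited table gave Irf1 (ENSMUSG00000018899, chromosome 11) a log2 fold change of -0.096 in muscle (p = 0.780, implied interval -0.77 to 0.58) with a larger mean of 478. Stat2 and Irf9, parts of the ISRE-binding complex, had 0.75 and 0.61 in muscle and 6.39 and 1.73 in bone per the authors' deposited table. The authors' deposited table gave Stat2 p = 0.0445 in bone, with a larger mean of 1.82. Irf7, which amplifies interferon production, had 1.02 in muscle and -1.35 in bone per the authors' deposited table (p = 0.478 and 0.461). Irf8, a factor of myeloid and dendritic cells, had -0.77 and 2.96 per the authors' deposited table, with larger means of 16.9 in muscle and 22.1 in bone. The transcript end of Irf7 is overlapped by Phrf1 on the opposite strand. That of Irf8 is overlapped by Gm20388 on the same strand, so its reads may be shared.

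The sensors were measured in muscle alone, apart from a trace in bone. Zbp1, which senses left-handed nucleic acid and can trigger cell death, had the smallest p of the members with an FDR in muscle. Its log2 fold change per the authors' deposited table was 4.61 (p = 0.0169, FDR = 0.528) with a larger mean of 22.3, so it did not pass. Ifih1, the sensor of long double-stranded RNA also called MDA5, had 1.48, and Ddx58, the sensor also called RIG-I, had -1.26 per the authors' deposited table (p = 0.189 and 0.402). The last 200 bases of Ddx58 transcripts share an exact run of 50 bases with transcripts of 128 other genes, so its value is uncertain. In bone Ifih1 and Ddx58 were listed at 0 and Zbp1 had a larger group mean of 0.101.

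Genes of the ISG15 modifier system had negative values in muscle and none passed. Isg15, a ubiquitin-like protein joined to other proteins after interferon, had in muscle a log2 fold change of -0.77 (p = 0.234, implied interval -2.03 to 0.50) per the authors' deposited table, with a larger mean of 107. In bone the authors' deposited table gave Isg15 0.68 (p = 0.502, implied interval -1.30 to 2.66) at 124. Usp18, which removes ISG15 and damps the receptor, had -1.45 in muscle, and Trim25, a ubiquitin ligase that acts on RIG-I, had -0.59 in muscle and -0.20 in bone, per the authors' deposited table.

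The antiviral effectors were mostly at low levels, and their log2 fold changes beyond 5 in size all stood at larger group means of 19.1 or less. Of 15 effectors, 13 had a fold change in muscle, 6 higher and 7 lower, and 8 had one in bone, 7 higher and 1 lower, where 69.7% of all bone genes were higher. Ifit1, which binds foreign RNA caps, was the effector with the highest muscle mean, 73.7, and had 0.19 there per the authors' deposited table (p = 0.853, implied interval -1.80 to 2.18). Mx2 belongs to a family of dynamin-like antiviral proteins, but the annotation used for positions types it as a polymorphic pseudogene. Mx2 had -3.90 in muscle per the authors' deposited table (p = 0.0499, FDR = 0.816) with a larger mean of 21.1. Ifit2 and Ifi44 had fitted values of 7.36 and 6.69 per the authors' deposited table (p = 0.0251 and 0.0452) at muscle means of 8.44 and 5.28, and neither kept an FDR. Xaf1, an antagonist of a cell death inhibitor, had -3.47 (p = 0.0738) at 16.2 per the authors' deposited table, and its end shares a run of 50 bases with 19 other genes.

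Rsad2, which encodes viperin, an enzyme that makes a chain-terminating nucleotide, had a bone level apart from its class. Its larger group mean per the authors' deposited table was 992 in bone, where 7 of the 15 effectors were listed at 0. The bone log2 fold change was 0.45 (p = 0.453, implied interval -0.73 to 1.63) per the authors' deposited table. In muscle the authors' deposited table gave Rsad2 -1.68 (p = 0.405) at 12.6. No other gene of the annotation overlapped the transcript end of Rsad2 (chromosome 12, 26442746 to 26456452 on GRCm38) or shared an exact run of 50 bases with its last 200 bases. Isg20, an interferon-induced exonuclease that is not a member, had the highest bone mean of the other pathway genes listed (806) and a log2 fold change of 0.27 per the authors' deposited table (p = 0.674).

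In bone the effectors of smallest p were Oas3 and Oasl2, of the family that makes oligoadenylates to activate an RNA-cutting enzyme. Their fitted log2 fold changes per the authors' deposited table were 9.44 and 8.83 (p = 0.00359 and 0.00697, FDR = 0.0784 for both). Their larger group means were 19.1 and 10.4. The ends of Oas3 and Oasl2 share a run of 50 bases with 7 and 22 other genes, so both values are uncertain. Parp14, an ADP-ribosyltransferase, and Ifi35 had 7.76 and 7.80 per the authors' deposited table (FDR = 0.0822 and 0.0835) at 4.68 and 4.74. Rtp4, a receptor chaperone, was the member lower in bone at p under 0.05, with -6.35 (p = 0.0464) at 6.64 per the authors' deposited table. None of these passed.

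The membrane proteins that block viral entry and release had positive values in bone, as most genes of that table did. All 4 were higher there, where 69.7% of all genes were, and 3 of 4 were higher in muscle, where 53.5% were. Ifitm3, which stops fusion of virus with the cell membrane, had a log2 fold change of 3.67 in bone (p = 0.00772, FDR = 0.0784, implied interval 0.97 to 6.37) with a larger mean of 151 per the authors' deposited table. In muscle, where its mean was 1186, the authors' deposited table gave Ifitm3 -0.033 (p = 0.903, implied interval -0.57 to 0.50). Ifitm1 had 10.27 in bone (p = 0.00210, FDR = 0.0784) at 32.7 and 0.93 in muscle at 36.5 per the authors' deposited table. Ifitm2 had 0.26 in muscle (implied interval -0.66 to 1.19) and Bst2, the tether that holds virus on the cell, had 0.42, per the authors' deposited table. The end of Ifitm2 is overlapped by Gm45717 on the same strand, so its reads may be shared. The FDR of 0.0784 is shared by 1253 bone genes, 4 of them members, so it does not rank them.

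The guanylate-binding proteins, GTPases that attack the membranes around intracellular pathogens, were measured mainly in muscle. Gbp2 and Gbp7 had 0.070 and 0.24 there (p = 0.920 and 0.806) with larger means of 83.3 and 57.6 per the authors' deposited table. Gbp3 had a fitted value of 8.13 (p = 0.0112) at 14.7 per the authors' deposited table and kept no FDR. The end of Gbp3 shares sequence with Gbp7, so its value is uncertain. In bone Gbp2 was listed at 0, and Gbp3 and Gbp7 had means of 0.303 and 2.13.

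The MHC-I genes were among the best measured members in both tissues, and none passed. B2m (ENSMUSG00000060802), the light chain of MHC-I molecules, had in muscle a log2 fold change of 0.50 (p = 0.0833, FDR = 0.949, implied interval -0.066 to 1.07) with a larger mean of 1330 per the authors' deposited table. In bone the authors' deposited table gave B2m 0.57 (p = 0.434, implied interval -0.86 to 1.99) at 420. Its transcript end is overlapped by Patl2 on the opposite strand. H2-D1, a heavy chain, had 0.50 in muscle (p = 0.151, implied interval -0.18 to 1.17) and 0.57 in bone (p = 0.523, implied interval -1.17 to 2.31) per the authors' deposited table. H2-K1, the other classical heavy chain listed, had -0.40 in muscle (p = 0.387, implied interval -1.30 to 0.51) and 1.87 in bone (p = 0.0477, FDR = 0.119) per the authors' deposited table. The ends of H2-K1 and H2-D1 share runs of 50 bases with 24 and 8 other genes, each with the other among them, so reads may be split between heavy chain genes.

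Peptide supply to MHC-I was less well measured. Tapbp, or tapasin, which bridges the transporter and the heavy chain, had 0.62 in muscle (p = 0.361, implied interval -0.71 to 1.95) and 2.86 in bone (p = 0.192) per the authors' deposited table. The transporter subunits Tap1 and Tap2 had -0.72 and 0.67 in muscle per the authors' deposited table, with larger means of 11.4 and 25.9. In bone the authors' deposited table gave Tap1 7.65 (p = 0.0185, FDR = 0.0833) and Tap2 -0.85 (p = 0.684) at means of 4.43 and 4.71. A Tap1 transcript end shares sequence with Tap2. Both genes lie in the MHC on chromosome 17, at 34187553 to 34197225 for Tap1 and 34203527 to 34216321 for Tap2 (GRCm38).

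Where the fit implied a very low level in the lower group, the size of a member's fold change followed its larger mean. Dividing the larger group mean by the size of the fold change gives the level that the fit implies for the lower group. Members under 0.1 on this measure were counted, a limit chosen after the values were seen. In muscle it was between 0.0431 and 0.0523 for 5 members, Gbp3, Ifit2, Ifi44, Oas2 and Oas1a, all higher in knockout samples. In bone it was between 0.0177 and 0.0920 for 13 members, 12 higher and 1 lower in knockout samples. Apart from Xaf1 in bone, these members lie on the straight outer edges of the plot of fold change against level, where the fold change tracks the larger mean, so it is no estimate of size. Members and genes under 0.1 made up 13.5% of members and 22.0% of all genes in muscle, and 46.4% of members and 49.6% of all genes in bone. They include 3 of the 5 muscle members and 8 of the 10 bone members at p under 0.05. Those outside it were Zbp1 and Mx2 in muscle, and Ifitm3 and H2-K1 in bone. Members are not set apart by this. Of all genes under 0.1, 32.6% in muscle and 57.4% in bone had p under 0.05. Of the other genes, 5.85% and 9.04% did.

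**Figure D3:**
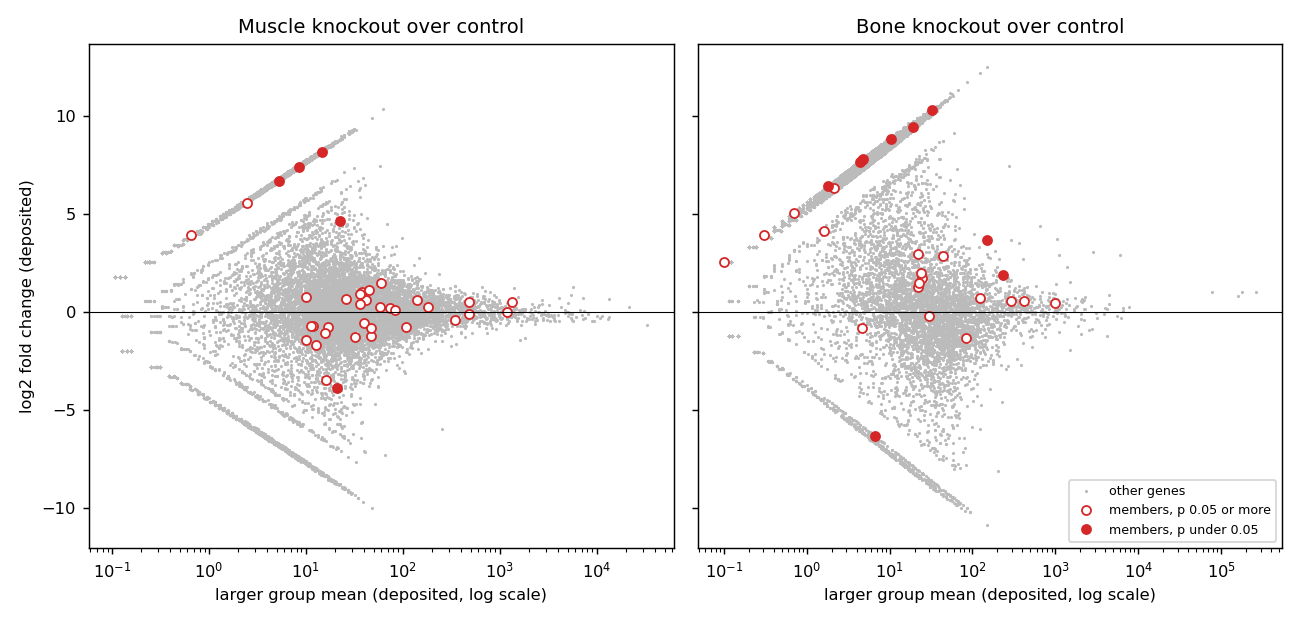
Deposited log2 fold change of knockout over control against the larger group mean (log scale) in muscle (left) and bone (right), for all other genes with a fold change (grey) and the member genes (red, filled at an unadjusted p under 0.05). In bone 8 of 10 filled points lie on the outer diagonal edges, and Ifitm3 and H2-K1 lie inside them. Of all bone genes with an implied lower level under 0.1, 57.4% had p under 0.05, against 9.04% of the others.

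Positive values were common in the bone table as a whole. There 24 of the 28 measured members (85.7%) were higher in knockout samples, against 69.7% of all genes, and in muscle 21 of 37 (56.8%) were, against 53.5%. Of the 7 bone members with a larger group mean above 50, 6 had positive values, and Irf7 had the negative one. Among all bone genes above that level 44.2% were higher. A gene can pass a limit on the larger mean through the group where it is high, no test was made of these shares, and they are not given as a difference between the members and other genes.

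Markers of other cells also had positive values in bone, where 69.7% of all genes did. All 6 neutrophil markers were higher, from 1.49 for Mpo to 7.45 for Ltf, which passed. All 5 red cell markers were higher, from 0.74 to 1.03, with larger group means that summed to 686022. The counts were 7 of 8 for macrophage markers, 4 of 5 for pan-leukocyte markers and 3 of 4 measured for B lineage markers. They were 3 of 4 measured for plasmacytoid dendritic markers, a list that holds the members Bst2 and Irf8, and 5 of 8 for mesenchymal markers. S100a8, a neutrophil protein, had 2.88 and Tyrobp, a leukocyte adaptor, had 3.12 per the authors' deposited table. The part of these cells in the members' values was not tested.

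Precision followed the level too. For the 8 muscle members with a larger group mean above 100, the implied standard error ran from 0.274 to 0.680 log2 units, and the log2 fold changes from -0.77 to 0.62. For the 5 with a mean of 10 or less it ran from 2.08 to 3.34. In bone it was 0.602 to 1.38 for the 6 members above 100. Together the implied intervals of the 8 muscle members above 100 ran from -2.03 to 1.95 log2 units. Ifitm3, Irf1, B2m and H2-D1 had the smallest standard errors of these, and their intervals together ran from -0.77 to 1.17.

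Members with and without the ISRE letters had overlapping values. In muscle the 15 measured members with the letters ran from -1.68 to 8.13, with 11 higher and a median of 0.26, and the 15 without ran from -3.47 to 7.36, with 7 higher and a median of -0.096. In bone 11 of the 16 members with the letters were measured, and the other 5 were listed at 0. The 11 ran from 0.45 to 9.44, all higher, where 69.7% of all bone genes were, with a median of 3.67. The 13 measured members without ran from -1.35 to 10.27, with 11 higher and a median of 2.86.

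The knockout effects in the 2 tissues were set against each other for the 27 members with a fold change in both. None of these differences reached an adjusted p under 0.05 in a Wald test built from the deposited fold changes and p, adjusted by Benjamini-Hochberg over 9598 genes, of which 0% passed. At an unadjusted p under 0.05 there were 8 members (29.6%), against 24.6% of all genes. The smallest adjusted p was 0.105, for Oasl2, whose difference of muscle minus bone was -9.91 log2 units. For Ifitm3 that difference was -3.70 (unadjusted p = 0.00837, adjusted p = 0.106), and for H2-K1 it was -2.27 (unadjusted p = 0.0308, adjusted p = 0.161). Of the 27, 12 were higher in knockout samples in both tissues, 2 lower in both, 2 higher in muscle alone and 11 higher in bone alone. Over all 9598 genes with both values these counts were 3579, 1344, 1573 and 3102 in the same order.

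Other genes of the pathway came from a list of 59 names, of which 57 matched. None passed, in 36 with an FDR in muscle and 42 in bone. At an unadjusted p under 0.05 there were 3 higher and 4 lower of 55 in muscle, against 6.41% and 5.31% of all genes. In bone 18 were higher and 1 lower of 48, against 28.8% and 4.2%. The receptor genes Ifnar2 and Ifngr1 had -0.76 and -0.036 in muscle per the authors' deposited table. Erap1, the enzyme that trims peptides for MHC-I, had the smallest p of the list in muscle, with a fitted 9.17 (p = 0.00201, FDR = 0.232) at 29.9 per the authors' deposited table. In bone the authors' deposited table gave Erap1 9.26 (p = 0.00510, FDR = 0.0784) at 14.9. The fold sizes of Erap1, 576 in muscle and 615 in bone, put its implied lower level under 0.1 in both, so neither value estimates size. Its transcript end is overlapped by Cast on the opposite strand, and the sources used here do not say whether the counting used strand.

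The other genes of smallest p on that list differed between the tissues, and none passed. In muscle they had negative values, with Igtp, an immunity-related GTPase, at -4.70 (p = 0.00345), Dtx3l, a ubiquitin ligase, at -2.74 (p = 0.00818) and H2-Aa, an MHC class II chain, at -4.70 (p = 0.00996) per the authors' deposited table. In bone those given had positive values and a smaller p than Erap1. Psmb10, an immunoproteasome subunit, had 9.60 (p = 0.00316, FDR = 0.0784) per the authors' deposited table. H2-Q7, a class I-like chain, had 9.38 (p = 0.00431, FDR = 0.0784) per the authors' deposited table. Their fold sizes were 776 and 665 at bone means of 19.1 and 14.4, so the implied lower level was under 0.1 for each. The end of Igtp overlaps Irgm2 on the same strand, so its reads may be shared, and that of Psmb10 is overlapped by Gm16156 on the opposite strand.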

How the data were processed

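RNA from 12 sorted-cell samples was made into libraries with the QuantSeq 3' kit, per the labels' protocols. Each of 2 deposited tables, 1 per tissue, gives the authors' log2 fold change of knockout over control, its p-value, FDR p-value and Bonferroni p-value, per the file headers. The larger group mean is a score from the deposited tables whose unit the file headers do not name. No source used here names the aligner, the counter or the test. GRCm38 and mm10 stand in the submitters' processing notes, yet only 3.28% of 25600 genes in the muscle table started within 1000 bases of their GENCODE M21 (GRCm38) position, so positions here come from GENCODE M21. The 48 per-library columns (4 kinds of value, 12 libraries) carry codes that match no label. They were not used, so depth per sample is not given and the planned edgeR, DESeq2, leave-one-out and block fits were not run.

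The threshold was the authors' FDR below 0.05. A Benjamini-Hochberg adjustment recomputed over genes with an FDR differed from the deposited FDR by at most 0.000995 in muscle and 0.000142 in bone. Intervals assume that p-values came from a Wald test, as does the tissue difference. The simulated data on which the tissue difference was tried were drawn under that same assumption, so they cannot check it. Transcript ends were compared over the last 200 bases of GENCODE M21 transcripts. Python 3.11.15, numpy 2.4.6, pandas 2.3.3 and scipy 1.17.1 were used. Members and lists were chosen with earlier results of these data known. All 39 members could be named, with full values for the 6 of smallest p and the 6 of largest group mean per tissue, and the 4 partner genes of smallest p, of which 1 is not reported here. The division of group mean by fold, and its limit of 0.1, were chosen after the values were seen.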

Additional observations from a re-analysis of the deposited data

How the results depend on the processing

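Every fold change here is the authors' own, so its direction could not vary with a setting. The count of members called was 0 in muscle at an FDR of 0.1 and when adjusted over all genes with a p. It was also 0 among genes with a group mean of at least 10 or 50. It was 5 of 37 at an unadjusted p under 0.05, where 11.7% of all muscle genes passed. In bone it was 0 adjusted over all genes with a p and with a group mean of at least 50. It was 7 at an FDR of 0.1, where 32.2% of all bone genes passed, and 10 at an unadjusted p under 0.05, where 33.0% did. It was 3 of 17 with a group mean of at least 10, where 14.1% of all genes passed. Those 3 were Oas3, Oasl2 and Ifitm1, each at an adjusted p of 0.0499 over fewer genes. Their implied lower levels were 0.0275, 0.0228 and 0.0265, so they met the limit of 10 only through the knockout group. The partner genes gave 7 of 55 (12.7%) at an unadjusted p under 0.05 in muscle, against 11.7% of all genes. In bone they gave 15 of 42 (35.7%) at an FDR of 0.1, against 32.2% of all genes. At an unadjusted p under 0.05 they gave 19 of 48 (39.6%) in bone, against 33.0%. With a bone group mean of at least 10 they gave 6, out of fewer genes than those 48, where 14.1% of all genes passed. The median log2 fold change of the members was 0.018 in muscle with a group mean of at least 10, where that of all genes was 0.036. In bone it was 1.73 with at least 10 and 0.57 with at least 50, where all genes had 0.19 and -0.20. A gene can pass such a limit through the group where it is high, and these medians were not tested. The 8 members whose tissue difference had an unadjusted p under 0.05 became 0 in every adjusted setting. No paired analysis was possible because the columns carry no replicate number and were tied to no sample. For the same reason leaving out a replicate, DESeq2 size factors and edgeR were not run. Level limits these results, since the largest fold changes stood at low group means.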
